A study of Homo sapiens with 20 samples.

Results

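The 29 genes described here encode enzymes of cholesterol synthesis, the sterol-sensing machinery that controls them, and targets of the same control in fatty acid and glycerolipid synthesis. They were chosen by name for their known place in the pathway, with earlier results of these data known. All 29 were found among the 27896 gene symbols of the count table, and all 29 were among the 16432 genes with enough reads to be tested. By role they comprise 6 genes of the mevalonate steps, 3 of the farnesyl and squalene steps, 9 of the lanosterol to cholesterol steps, 1 sterol transfer protein (STARD4), 5 genes of the sterol regulatory element-binding protein (SREBP) and its control, and 5 genes of fatty acid and glycerolipid synthesis.

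The cells were HEK293-GR, a line derived from human embryonic kidney that constitutively expresses the glucocorticoid receptor (GR), so the receptor level is set by the transgene as well as by the cells. RNA came from 16 libraries of polyadenylated RNA in 4 groups of 4, transfected for 72 h with 20 nM of small interfering RNA, given as a pool, either against BCOR, a corepressor gene (siBCOR), or non-targeting (siNON). Each transfection was combined with 6 h of 100 nM dexamethasone, a synthetic glucocorticoid, or of its ethanol vehicle. All 4 groups had been kept for 48 h in medium with charcoal-treated serum, which is depleted of steroids. BCOR binding was mapped by ChIP-seq in untransfected cells after 1 h of dexamethasone or vehicle, with 2 libraries for each.

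As background, cholesterol is built from acetyl-CoA through mevalonate, farnesyl diphosphate, squalene and lanosterol. When membrane sterol is low, the escort protein SCAP carries the SREBP precursors, encoded by SREBF1 and SREBF2, from the endoplasmic reticulum to the Golgi, where they are cleaved into active transcription factors. The INSIG proteins hold SCAP back when sterols are plentiful, and INSIG1 is itself an SREBP target. SREBPs act on promoters together with general factors such as NF-Y, which binds CCAAT boxes. In the kidney line studied here all 29 genes had enough reads to be tested, and cholesterol itself was not measured. The liver, where the pathway is best known, is not represented: all 5 hepatocyte markers (ALB, APOA1, TTR, CYP3A4 and SERPINA1) were too low to be tested, and summed to 0.17 to 0.804 CPM (counts per megaread) in the 16 libraries.

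The promoters of 4 genes on which the results below turn are shown first, as the 250 bases before the RefSeq start site in GRCh38.p14, read 5′ to 3′ on the gene's strand. NSDHL had the largest rise of the 29 with dexamethasone in siNON cells, HMGCS1 the largest fall there, INSIG1 fell further in siBCOR than in siNON cells, and SREBF2 encodes the main SREBP of the cholesterol genes. Capitals mark matches to 4 letter patterns searched on both strands: CCAAT (or ATTGG) for NF-Y, TCACNCCAC for the sterol regulatory element, CACGTG for the E-box, and ACANNNTGT for the core of a GR element. Windows were chrX:152830813-152831112 for NSDHL, chr7:155297628-155297927 for INSIG1 and chr22:41832855-41833154 for SREBF2, on the plus strand, and chr5:43313363-43313662 for HMGCS1, on the minus strand. Each window has 50 further bases after the start site that are not printed.
NSDHL: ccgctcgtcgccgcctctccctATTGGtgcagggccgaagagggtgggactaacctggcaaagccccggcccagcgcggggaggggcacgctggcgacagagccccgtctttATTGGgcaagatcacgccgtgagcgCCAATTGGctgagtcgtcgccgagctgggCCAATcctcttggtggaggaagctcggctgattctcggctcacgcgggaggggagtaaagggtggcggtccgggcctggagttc
INSIG1: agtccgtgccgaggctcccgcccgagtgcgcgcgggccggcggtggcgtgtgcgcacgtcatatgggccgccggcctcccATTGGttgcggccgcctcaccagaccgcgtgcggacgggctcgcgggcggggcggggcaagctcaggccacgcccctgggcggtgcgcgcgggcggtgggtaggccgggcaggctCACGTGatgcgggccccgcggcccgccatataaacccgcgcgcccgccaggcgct
HMGCS1: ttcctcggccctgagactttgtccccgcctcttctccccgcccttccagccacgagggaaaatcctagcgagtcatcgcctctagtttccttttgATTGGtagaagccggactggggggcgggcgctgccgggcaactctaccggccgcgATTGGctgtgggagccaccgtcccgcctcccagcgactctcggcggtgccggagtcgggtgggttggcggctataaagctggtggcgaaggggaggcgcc
SREBF2: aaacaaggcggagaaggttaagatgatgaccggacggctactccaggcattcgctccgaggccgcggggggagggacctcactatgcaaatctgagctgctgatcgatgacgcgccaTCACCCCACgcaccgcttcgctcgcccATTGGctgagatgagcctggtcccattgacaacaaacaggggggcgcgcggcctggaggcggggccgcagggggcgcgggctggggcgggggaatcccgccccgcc

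NSDHL had 5 NF-Y matches in this window, 2 of which overlap in CCAATTGG, and HMGCS1 had 2. INSIG1 had 1 NF-Y match, 170 bases before the start site, and an E-box 55 bases before it. SREBF2 had the TCACNCCAC match, as TCACCCCAC, 133 bases before the start site, and an NF-Y match 106 bases before it. RefSeq promoter windows were on hand for 25 of the 29 genes (36 windows, since some genes have several start sites). An NF-Y match lay in 23 of the 36 windows, from 19 of the 25 genes, against 34.6% of 35116 promoter windows of the same length. An E-box lay in 5 windows, from 4 genes (INSIG1, SCAP, SC5D and LSS), against 7.26% of all. The SC5D windows overlap and hold the same E-box, and the shares of all are per window, not per gene. The GR core pattern lay in 3 windows (CYP51A1, DHCR7 and MSMO1), against 5.37% of all, and TCACNCCAC in 1, against 1.13% of all. A match to a few letters is not a measured binding site, and the 2 patterns that SREBPs are known to bind have looser forms that these letters miss.

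Libraries held 18580294 to 28054808 counts over the transcripts used. The targeted gene, BCOR, stood at 159 to 227 CPM in siNON vehicle, 70.6 to 106 in siNON dexamethasone, 21.8 to 23.5 in siBCOR vehicle and 13.8 to 15.4 in siBCOR dexamethasone libraries. It was 8.77-fold lower with siBCOR in vehicle and 6.36-fold lower in dexamethasone, and hormone itself lowered it 2.09-fold in siNON cells (adjusted p = 1.45e-06, edgeR). All 8 HEK293 markers were tested, although the kidney lineage genes PAX2 and LHX1 were low (1.78 to 4.62 CPM as group means). Of these 8, 2 rose and 4 fell with hormone in siNON cells, 1 rose and 4 fell in siBCOR cells, and 3 were lower with siBCOR in each treatment. Of all genes tested, 10.7% rose and 8.64% fell with hormone in siNON cells, and 10.5% and 12.5% in siBCOR cells. With siBCOR 8.87% of all genes were higher and 8.23% lower in vehicle, and 20.7% and 18.8% in dexamethasone. The 8 markers summed to 1253 to 1497 CPM in siNON vehicle, 1370 to 1465 in siNON dexamethasone, 1133 to 1301 in siBCOR vehicle and 1114 to 1176 in siBCOR dexamethasone. Of the fibroblast markers 1 of 5 (COL1A1) and of the immune cell markers 2 of 5 had enough reads to be tested. The receptor gene NR3C1 fell with hormone in siNON and siBCOR cells (log2 fold changes -0.50 and -0.36) and was higher with siBCOR in dexamethasone (0.29, adjusted p = 0.000875, edgeR). All 4 GR response genes (FKBP5, TSC22D3, PER1 and SGK1) rose with hormone under both siRNAs. Their summed level was lower with siBCOR, at 314 to 386 against 455 to 601 CPM in vehicle and 1532 to 1646 against 1855 to 2140 in dexamethasone, and 1 of the 4 was called lower in vehicle and 2 in dexamethasone. Of 6 interferon response genes, which transfected RNA can induce, 5 were tested. IFIT1, IFIT2 and IFIT3 rose with siBCOR in vehicle, and the 6 genes summed to 9.75 to 11.5 CPM in siNON vehicle against 12.8 to 14.8 in siBCOR vehicle, and to 9.04 to 11.1 in siNON dexamethasone against 13.1 to 16.6 in siBCOR dexamethasone. IFIT1 and IFIT3 were also higher with siBCOR in dexamethasone. The part of these marker changes in the results below was not tested.

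A pair of siNON libraries stood apart from their groups: replicate 3 in vehicle and replicate 4 in dexamethasone, with a root mean square deviation over all genes of 0.266 and 0.28 on the log2 scale, against 0.156 to 0.198 for the other 6 siNON libraries. Their deviations had a correlation of 0.654 across the 16432 genes, which are not independent replicates. Of the 29 genes, 8 were highest of their group in both libraries (HMGCS1, IDI1, CYP51A1, MSMO1, HSD17B7, SC5D, STARD4 and INSIG2) and 10 were lowest in both (among them SREBF1, SREBF2, SCAP and FASN). STARD4, for example, was 0.80 above the mean of the other 3 libraries in the first and 0.69 in the second on the log2 scale, and FASN was 0.50 and 0.68 below (-0.50 and -0.68). The same direction appeared in the comparison of siBCOR with siNON cells in dexamethasone, which does not use the vehicle library: its log2 fold changes had a correlation of 0.564 with the deviation of siNON vehicle replicate 3, and 15 of the 16 genes called there had the sign of that deviation. The share of all called genes with that sign was not counted. For siNON dexamethasone replicate 4 and the comparison in vehicle, which does not use that library, the correlation was 0.0554. Replicate 2 of siBCOR vehicle, at 0.257, deviated in the opposite direction for the same genes, with STARD4 at -0.58, SC5D at -0.59 and SREBF1 at 0.42. The part of this shared direction in the siBCOR results was not tested, and the counts of the 29 genes called in each comparison are given with and without both siNON libraries.

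Levels were compared between genes per kilobase of transcript. In siNON vehicle cells ACLY (241 ± 21.3 CPM per kb, SD, n = 4), SCD (195 ± 13.5), FASN (190.4 ± 35.9) and FDPS (163 ± 12.2) stood highest and INSIG2 (5.34 ± 0.623) and HSD17B7 (6.17 ± 0.544) lowest. Within the cholesterol branch the mevalonate kinases and decarboxylase were low, with MVK at 15.2 ± 1.01, MVD at 16.8 ± 2.22 and PMVK at 22.1 ± 1.8, while EBP, the sterol isomerase, stood at 115 ± 10.6 and ACAT2, the thiolase that makes acetoacetyl-CoA, at 114 ± 7.61. INSIG1 (124 ± 3.12) was at a far higher level than INSIG2, and SREBF2 (34.4 ± 4.09) was above SREBF1 (11.7 ± 1.66). SCD and FASN did not differ beyond their spread between libraries, and the 5 genes below SREBF1 (INSIG2, HSD17B7, STARD4, LPIN1 and SC5D) lay between 5.34 and 8.58.

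**Figure D1:**
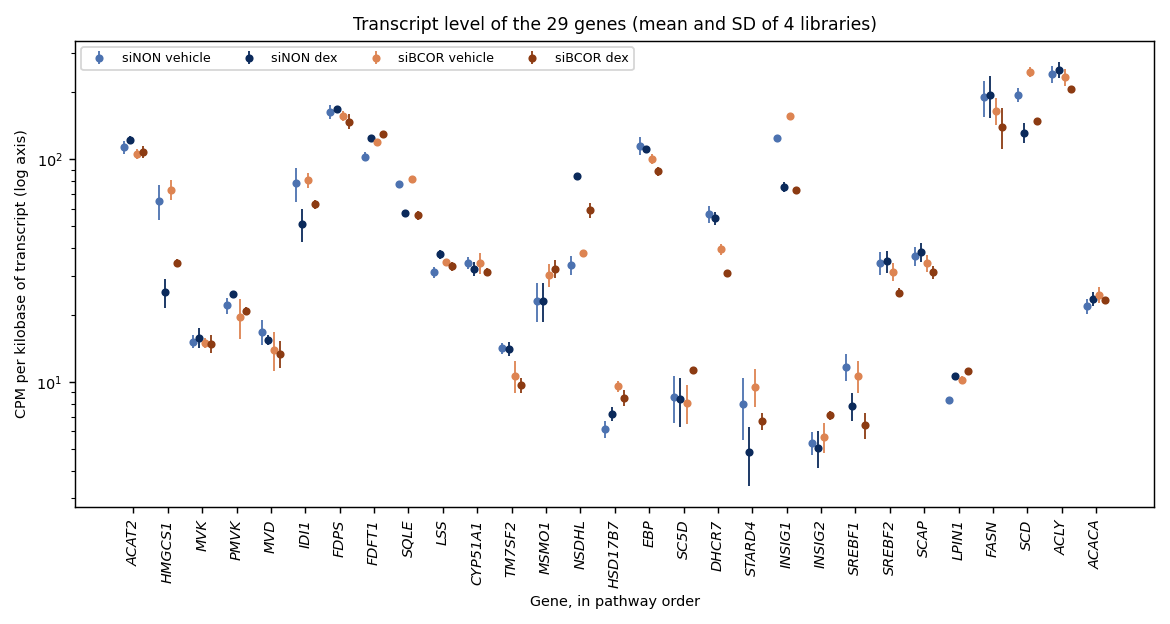
Level of each of the 29 genes in CPM per kilobase of transcript (log axis) as the mean and SD of 4 libraries in each of the 4 groups, with genes in pathway order from left to right. ACLY, SCD, FASN and FDPS are highest and INSIG2 and HSD17B7 lowest in siNON vehicle cells, and NSDHL, HMGCS1 and INSIG1 have the widest gaps between vehicle and dexamethasone.

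The first comparison asked how dexamethasone acted on the pathway in cells with BCOR. In siNON cells 4 of the 29 genes rose and 7 fell, against 10.7% of all genes tested that rose and 8.64% that fell (edgeR quasi-likelihood test, Benjamini-Hochberg adjusted p under 0.05). The changes ran both ways along the pathway. The early enzyme HMGCS1, the squalene epoxidase SQLE and the sterol sensor INSIG1 fell, while the late enzyme NSDHL rose. The median log2 fold change of the 29 was -0.0048, against -0.0044 over all genes tested. In either direction 11 of 29 were called, against 19.4% of all genes, and 12 had an unadjusted p under 0.05, against 29.9%. The 4 vehicle and 4 dexamethasone libraries did not overlap in 11 of the 29 (5 higher and 6 lower), against 19.9% of all genes (11.1% higher and 8.75% lower). Without both libraries that stood apart the counts were 4 and 7.

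Among the mevalonate genes, HMGCS1, the HMG-CoA synthase, was at 309, 338, 447 and 328 CPM in the siNON vehicle libraries and at 135, 132, 119 and 167 in siNON dexamethasone. Every hormone library lay below every vehicle library, and the fall was 2.58-fold (log2 fold change -1.37 ± 0.115, SE, adjusted p = 7.44e-08, edgeR). IDI1, the isopentenyl diphosphate isomerase, went from 207, 197, 286 and 241 CPM to 145, 147, 128 and 188. These groups did not overlap either, though replicate 4 of the hormone group came near the lowest vehicle library, and the log2 fold change was -0.61 ± 0.115 (adjusted p = 0.000785, edgeR). The enzymes between them were not called: MVK had a log2 fold change of 0.06 (95% interval -0.12 to 0.24), PMVK 0.18 (-0.04 to 0.40) and MVD -0.12 (-0.39 to 0.16), and ACAT2 had 0.11 (-0.02 to 0.24).

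In the farnesyl and squalene steps neighbouring enzymes moved in opposite directions. FDFT1, the squalene synthase, rose from 258 to 284 CPM in vehicle to 323 to 340.4 in dexamethasone (log2 fold change 0.27 ± 0.0477, adjusted p = 0.000403, edgeR). SQLE, which oxidizes squalene in the next step, was at 232, 224, 226 and 238 CPM in vehicle and at 175, 170.5, 173 and 165 in dexamethasone, with no overlap (-0.43 ± 0.0469, adjusted p = 2.06e-06, edgeR). FDPS, the farnesyl diphosphate synthase, had a log2 fold change of 0.04 (95% interval -0.09 to 0.18) and was not called.

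Of the 9 genes from lanosterol to cholesterol, 2 rose and none fell (edgeR, 3 with an unadjusted p under 0.05, all 3 upward). NSDHL, a dehydrogenase that removes a methyl group from the sterol ring as carbon dioxide, was at 56.1, 48.4, 51.9 and 60.8 CPM in siNON vehicle and at 132, 136, 140.2 and 137 in siNON dexamethasone. The 4 hormone libraries lay close together and far above the vehicle libraries, a 2.51-fold rise (log2 fold change 1.33 ± 0.0713, adjusted p = 1.7e-10, edgeR). LSS, the lanosterol synthase, rose from 125 to 141 CPM to 151 to 168 (0.27 ± 0.0578, adjusted p = 0.00233, edgeR). The other 7 were CYP51A1, TM7SF2, MSMO1, HSD17B7, EBP, SC5D and DHCR7, whose log2 fold changes ran from -0.08 to 0.23. HSD17B7, at the upper end, had an adjusted p of 0.0871.

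The sterol transfer protein gene STARD4 fell from 31, 32.5, 54.9 and 31.2 CPM to 21, 22.3, 15.8 and 31.7 (log2 fold change -0.73 ± 0.207, adjusted p = 0.0189, edgeR). The groups overlapped, since replicate 4 in hormone lay above replicates 1 and 4 in vehicle, and replicate 3 in vehicle was far above the rest. Its call was lost without siNON dexamethasone replicate 1 (adjusted p = 0.0559) or replicate 3 (0.0684), and in a fit of the 2 compared groups alone (0.0681), all by edgeR.

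Among the genes of SREBP control, INSIG1 and SREBF1 fell while SREBF2, SCAP and INSIG2 were not called. INSIG1 was at 394, 382, 403 and 384 CPM in vehicle and at 249, 244, 230.0 and 225 in dexamethasone, a 1.65-fold fall with no overlap (log2 fold change -0.72 ± 0.0476, adjusted p = 2.84e-09, edgeR). SREBF1, which encodes the SREBP best known for fatty acid genes, was at 60.7, 64.7, 45.9 and 58 CPM in vehicle and at 39.4, 42.6, 40.5 and 30.2 in dexamethasone. Replicate 3 in vehicle and replicate 4 in hormone were the low libraries here, the groups still did not overlap, and the log2 fold change was -0.58 ± 0.135 (adjusted p = 0.00452, edgeR). SREBF2 had a log2 fold change of 0.02 (95% interval -0.18 to 0.21), SCAP 0.06 (-0.12 to 0.24) and INSIG2 -0.08 (-0.36 to 0.19).

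In fatty acid and glycerolipid synthesis SCD fell and LPIN1 rose. SCD, the desaturase that makes oleate, was at 1107, 1138, 972 and 1042 CPM in vehicle and at 769, 739, 759.5 and 612 in dexamethasone (log2 fold change -0.57 ± 0.0717, adjusted p = 1.24e-05, edgeR). LPIN1, a phosphatidate phosphatase, was within 46.1 to 47.3 CPM in vehicle and 56.6 to 61.2 in dexamethasone (0.35 ± 0.0523, adjusted p = 7.47e-05, edgeR). Both pairs of groups were separate. FASN, ACLY and ACACA, which make the fatty acid chain and its precursors, had log2 fold changes of 0.04, 0.07 and 0.11 and were not called. The interval for FASN was wide (-0.33 to 0.40), since its libraries spread from 1129 to 1960.0 CPM.

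The second comparison asked for the same response in cells depleted of BCOR. In siBCOR cells 1 of the 29 genes rose and 8 fell, against 10.5% and 12.5% of all genes tested. NSDHL was the 1 that rose, and the 8 were HMGCS1, IDI1, SQLE, INSIG1, SREBF1, SCD, DHCR7 and SREBF2. The median log2 fold change of the 29 was -0.14, against 0.0035 over all genes. The groups did not overlap in 14 of the 29 (5 higher and 9 lower), against 30.7% of all genes (15.3% and 15.4%). In either direction 9 of 29 were called, against 23.1% of all genes, and 16 had an unadjusted p under 0.05, against 36.1%. The count that rose was 4 without both libraries that stood apart and 4 with DESeq2, 3 without siNON vehicle replicate 3 or without siNON dexamethasone replicate 4, and 2 without siNON dexamethasone replicate 3, without siBCOR vehicle replicate 1, 2 or 3, with upper-quartile scaling or with no filter on low counts. The count that fell was 11 without both libraries.

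HMGCS1 went with hormone from 401, 343, 437 and 416 CPM to 194, 185, 177 and 193 in the siBCOR libraries, a 2.13-fold fall (log2 fold change -1.09 ± 0.114, adjusted p = 1.31e-06, edgeR). IDI1 went from 254, 214, 253 and 238 CPM to 197, 190.1, 176 and 187 (-0.35 ± 0.115, adjusted p = 0.0338, edgeR). The IDI1 groups did not overlap, but its call was lost when any 1 of 7 of the 8 siBCOR libraries was left out, all but vehicle replicate 2, with adjusted p up to 0.0879. SQLE was at 245, 248, 237 and 238 CPM in vehicle and at 165, 177, 160.2 and 166 in dexamethasone (-0.54 ± 0.047, adjusted p = 1.35e-07, edgeR).

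INSIG1 went from 507, 472, 495 and 500.4 CPM to 222, 232, 231 and 228, a 2.16-fold fall (log2 fold change -1.11 ± 0.0479, adjusted p = 1.04e-11, edgeR). The hormone libraries overlapped the siNON hormone libraries, at 225 to 249 CPM, and the vehicle libraries lay above all siNON vehicle libraries. SREBF1 went from 45.3, 64.2, 46.5 and 52.5 CPM to 32, 30.4, 36.3 and 26.3 (-0.74 ± 0.136, adjusted p = 0.00068, edgeR), and SCD from 1455, 1352, 1302 and 1296 CPM to 827, 835, 822 and 781 (-0.73 ± 0.0718, adjusted p = 6.36e-07, edgeR). Neither pair of groups overlapped.

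A pair of genes not called in siNON cells fell in siBCOR cells. DHCR7, the reductase of the last step to cholesterol, went from 102, 112, 98.7 and 105 CPM to 82.2, 79.8, 85.3 and 81.4 (log2 fold change -0.35 ± 0.0685, adjusted p = 0.00115, edgeR). SREBF2 went from a range of 162 to 201 CPM to a range of 137 to 153 (-0.31 ± 0.0924, adjusted p = 0.0216, edgeR), and this call was lost without siBCOR vehicle replicate 2 (adjusted p = 0.074) or without siBCOR dexamethasone replicate 1 (0.0505) or 4 (0.0637). The difference between the siRNAs was tested as below, and neither gene was called there.

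NSDHL went with hormone from 62.2, 61.2, 62.2 and 60 CPM to 90.9, 100.3, 87.6 and 104. All 4 hormone libraries lay above the vehicle libraries and below all 4 siNON hormone libraries, and the rise was 1.56-fold (log2 fold change 0.64 ± 0.0706, adjusted p = 2.39e-06, edgeR). FDFT1, LPIN1 and LSS, the other 3 that rose in siNON cells, had log2 fold changes of 0.12 (95% interval 0.02 to 0.22), 0.13 (0.02 to 0.24) and -0.06 (-0.18 to 0.06) in siBCOR cells and were not called. STARD4, which fell in siNON cells, had a log2 fold change of -0.52 in siBCOR cells and was not called. It was called lower under 8 of 23 alternatives. SC5D and EBP, also not called with all libraries, were called higher under 10 and lower under 9 of 23.

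**Figure D2:**
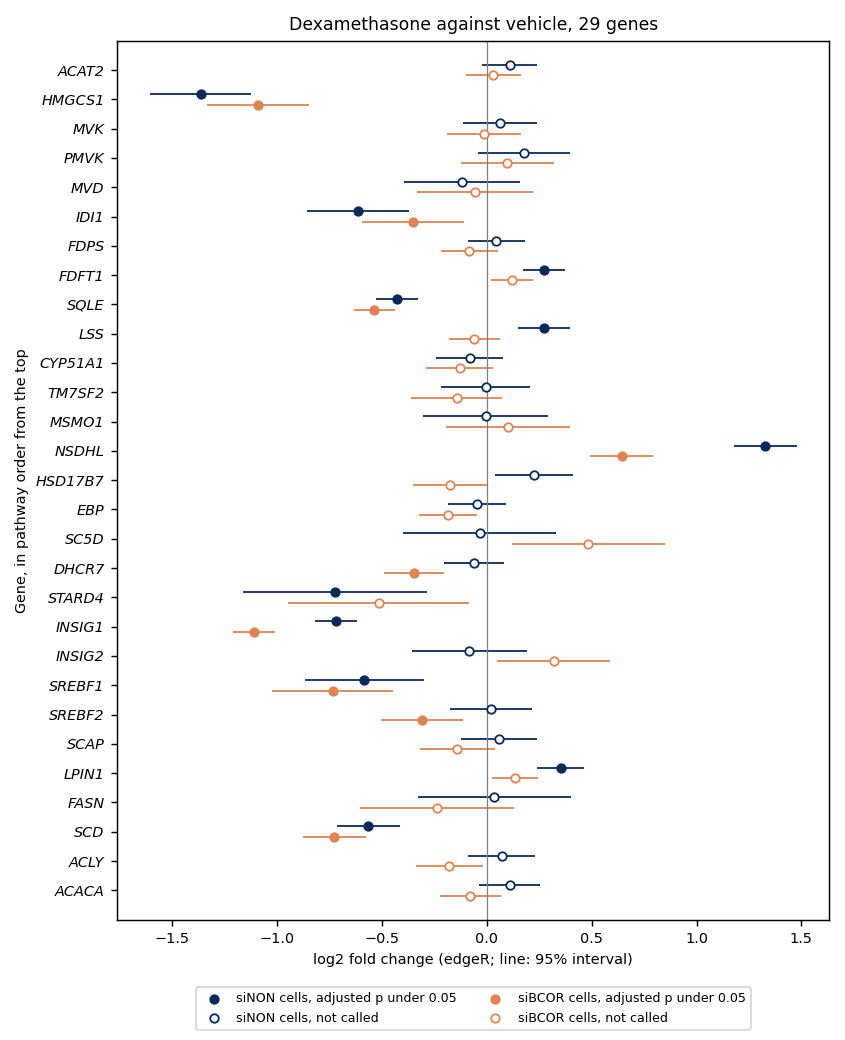
Log2 fold change of dexamethasone against vehicle for the 29 genes in pathway order, in siNON (dark) and siBCOR (orange) cells, with 95% intervals, from 4 libraries per group; filled points passed an adjusted p of 0.05. HMGCS1, IDI1, SQLE, INSIG1, SREBF1 and SCD are filled to the left and NSDHL to the right under both siRNAs, with NSDHL nearer to 0 and INSIG1 farther from 0 in siBCOR cells.

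The difference between these responses was tested as the interaction of siRNA and hormone. It was called for 2 of the 29 genes, NSDHL and INSIG1, both below 0, against 0.0974% of all genes in either direction, 0.0183% above and 0.0791% below (3 and 13 genes). An unadjusted p under 0.05 was found for 11 of the 29, against 19.3% of all genes. Without both libraries that stood apart the counts were 1 above 0 and 5 below. NSDHL and INSIG1 were already known to pass this test when the genes were chosen, so the test is given as a description. The sign has a different meaning in each: NSDHL rose less in siBCOR cells (0.64 against 1.33, difference -0.69 ± 0.0996, adjusted p = 0.0149, edgeR), and INSIG1 fell further (-1.11 against -0.72, difference -0.39 ± 0.067, adjusted p = 0.0351, edgeR). For NSDHL the hormone groups did not overlap, at 132 to 140.2 CPM with siNON and 87.6 to 104 with siBCOR, while the vehicle groups did. With siBCOR in vehicle NSDHL had a log2 fold change of 0.18 (95% interval 0.03 to 0.33, adjusted p = 0.0993, edgeR), which was called without siNON vehicle replicate 4 (0.23, adjusted p = 0.0407). For INSIG1 the vehicle groups did not overlap, at 382 to 403 CPM with siNON and 472 to 507 with siBCOR, while the hormone groups did. Without both siNON libraries that stood apart, INSIG1 was also called lower with siBCOR in dexamethasone (-0.12, adjusted p = 0.0483, edgeR). The hormone library left out was the lowest of its group for INSIG1, so its removal in itself widens that difference.

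Both calls could be lost when a single library was left out, while the size of the differences changed little. Of the 29, 0 were called without siNON dexamethasone replicate 3 or siBCOR dexamethasone replicate 1 or 3 (edgeR), and 1 without any other single library but siNON dexamethasone replicate 4. NSDHL was not called without siNON dexamethasone replicate 3 (adjusted p = 0.0576), siBCOR dexamethasone replicate 1 (0.0673) or siBCOR dexamethasone replicate 3 (0.0516), while its difference stayed between -0.74 and -0.63 under all 22 alternatives run. INSIG1 was called under 4 of 22: with DESeq2, with the longest transcript, without siNON dexamethasone replicate 4 (adjusted p = 0.012) and without both libraries that stood apart (0.00864). It was not called without any other single library (adjusted p 0.0525 to 0.132), and its difference stayed between -0.43 and -0.37. Leaving out siNON dexamethasone replicate 4 raised the calls over all genes to 1441 above 0 and 1096 below, and those among the 29 to 2 above (SC5D and INSIG2) and 7 below (NSDHL, INSIG1, LSS, DHCR7, SREBF2, LPIN1 and ACLY). Except for NSDHL, each of these was highest or lowest of its group in that library, so its removal in itself widens the difference.

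With all libraries, the next smallest unadjusted p belonged to LSS (difference -0.33 ± 0.0818, adjusted p = 0.169), followed by HSD17B7 (-0.40 ± 0.122, 0.195) and DHCR7 (-0.29 ± 0.0963, 0.211), by edgeR. LSS had 125 to 141, 151 to 168, 139 to 151 and 133 to 148 CPM in siNON vehicle, siNON dexamethasone, siBCOR vehicle and siBCOR dexamethasone. The median difference over the 29 was -0.138, against -0.017 over all genes, and 7 of the 29 were above 0, against 47.8% of all genes. All 5 genes of fatty acid and glycerolipid synthesis were below 0, and none of the 5 was called.

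**Figure D3:**
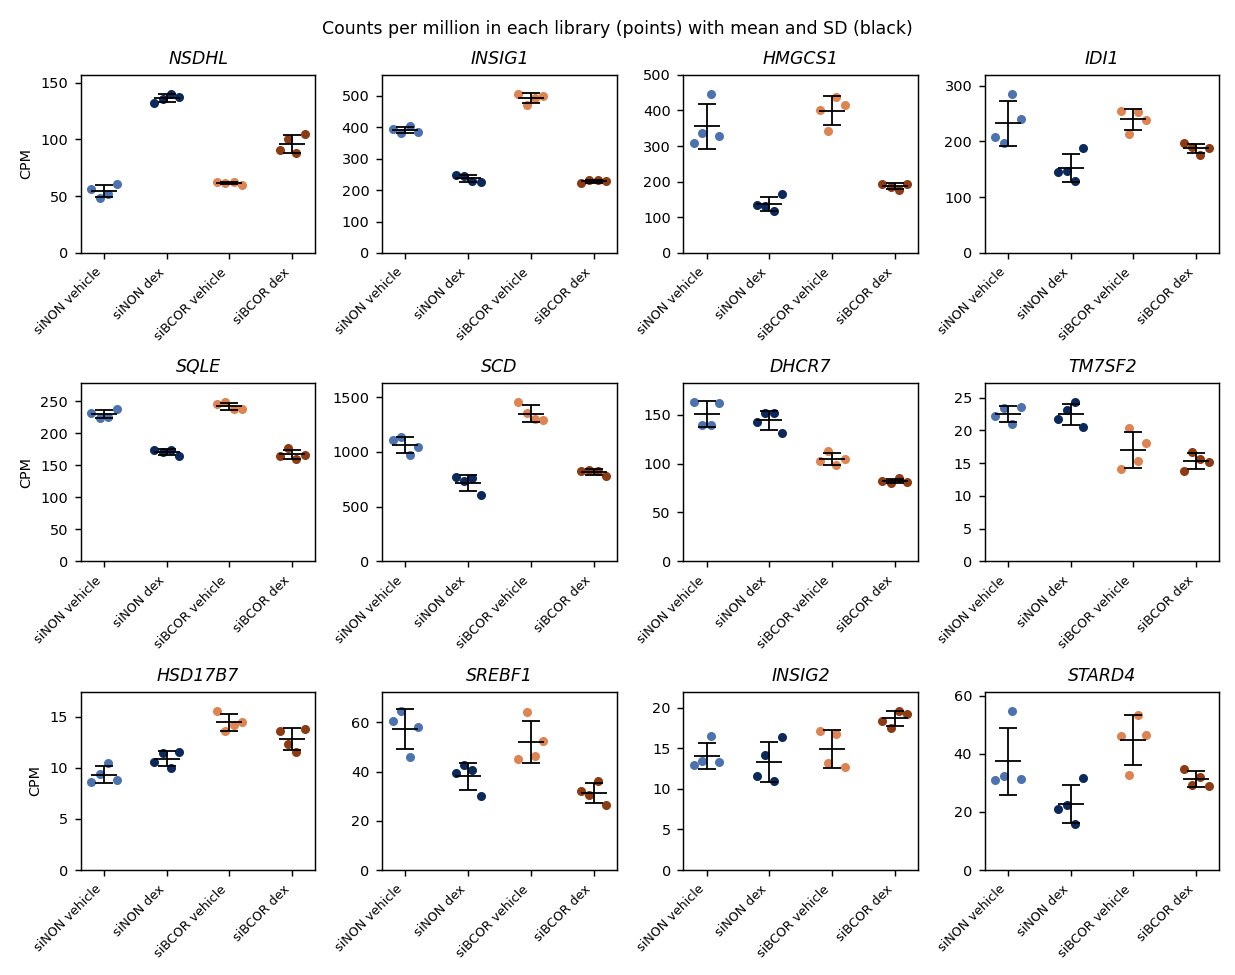
CPM of 12 genes in each of the 16 libraries (points), with the mean and SD of each group of 4 (black). NSDHL separates the siNON and siBCOR hormone groups (132 to 140.2 against 87.6 to 104 CPM), INSIG1 separates the vehicle groups, and replicate 3 of siNON vehicle and replicate 4 of siNON dexamethasone are the high points for HMGCS1, IDI1 and STARD4.

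The third comparison asked what loss of BCOR did without hormone. In vehicle 5 of the 29 genes were higher in siBCOR than in siNON cells and 3 were lower, against 8.87% and 8.23% of all genes tested. Those higher were HSD17B7, SCD, INSIG1, LPIN1 and FDFT1, and those lower DHCR7, TM7SF2 and EBP, 3 enzymes of the lanosterol to cholesterol steps. In either direction 8 of 29 were called, against 17.1% of all genes, and 12 had an unadjusted p under 0.05, against 31%. The groups did not overlap in 8 of the 29 (5 higher and 3 lower), against 18% of all genes (10.1% and 7.92%), and the median log2 fold change was 0.0026, against 0.025. Without both libraries that stood apart the counts were 8 higher and 6 lower, with HMGCS1, MSMO1 and STARD4 added to those higher and MVD, SREBF2 and SCAP to those lower, and in a fit of the 2 compared groups alone 5 and 1. Each added gene was highest or lowest of its group in siNON vehicle replicate 3, so leaving that library out in itself widens its difference. Without siBCOR vehicle replicate 2, PMVK was called lower (-0.33, adjusted p = 0.00437, edgeR) and MSMO1 higher (0.45, adjusted p = 0.0368, edgeR). In that library PMVK was highest and MSMO1 lowest of the group, so its removal in itself widens these differences too.

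HSD17B7, a keto reductase of the sterol ring, was at 8.6, 9.43, 10.4 and 8.84 CPM in siNON vehicle and at 15.6, 13.6, 14.2 and 14.5 in siBCOR vehicle (log2 fold change 0.64 ± 0.0863, adjusted p = 0.000123, edgeR). The groups lay well apart. The table also lists HSD17B7P2, a copy with 15.1% as many reads as HSD17B7, and reads that both share could have been assigned to either. INSIG1, with the values given above, was 1.26-fold higher (0.34 ± 0.0473, adjusted p = 0.00017, edgeR), and SCD 1.27-fold (0.34 ± 0.0715, adjusted p = 0.0036, edgeR). LPIN1 was at 55.8 to 60.8 CPM against 46.1 to 47.3 in siNON (0.30 ± 0.0523, adjusted p = 0.00106, edgeR).

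DHCR7 was at 163, 139, 139 and 161 CPM in siNON vehicle and at 102, 112, 98.7 and 105 in siBCOR vehicle, 1.44-fold lower with no overlap (log2 fold change -0.52 ± 0.0682, adjusted p = 8.83e-05, edgeR). TM7SF2, a sterol reductase, was at 22.2, 23.4, 21 and 23.6 CPM in siNON and at 14.2, 20.3, 15.3 and 18.1 in siBCOR vehicle (-0.41 ± 0.102, adjusted p = 0.0106, edgeR). Its groups did not overlap, although siBCOR replicate 2 came close to the siNON libraries. EBP was lower by less (-0.20 ± 0.0654, adjusted p = 0.0486, edgeR), and the call was lost under 15 of 23 alternatives, among them leaving out any 1 of 12 libraries. FDFT1 (0.21 ± 0.0477, adjusted p = 0.00589, edgeR) was not called without siNON vehicle replicate 3 (0.078), with upper-quartile scaling (0.0535) or with no filter on low counts (0.0554).

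The fourth comparison asked what loss of BCOR did in the presence of hormone. In dexamethasone 5 of the 29 genes were higher in siBCOR cells and 11 were lower, against 20.7% and 18.8% of all genes tested. The groups did not overlap in 13 of the 29 (4 higher and 9 lower), against 34.2% of all genes (16.6% and 17.6%). In either direction 16 of 29 were called, against 39.5% of all genes, and 21 had an unadjusted p under 0.05, against 49.8%. Those lower included 5 of the 9 enzymes from lanosterol to cholesterol (DHCR7, TM7SF2, NSDHL, EBP and LSS), FDPS and ACAT2 of the earlier steps, SREBF2 and SCAP of the SREBP machinery, and the fatty acid genes FASN and ACLY. Those higher were INSIG2, MSMO1, HMGCS1, IDI1 and HSD17B7. The median log2 fold change was -0.097, against 0.025 over all genes, and without both libraries that stood apart the counts were 7 and 14.

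DHCR7 was at 142, 152, 151 and 131 CPM in siNON dexamethasone and at 82.2, 79.8, 85.3 and 81.4 in siBCOR dexamethasone, 1.75-fold lower (log2 fold change -0.81 ± 0.0686, adjusted p = 6.4e-07, edgeR). TM7SF2 was at 21.8, 23.1, 24.3 and 20.6 CPM against 13.9, 16.7, 15.7 and 15.1 (-0.55 ± 0.102, adjusted p = 0.000875, edgeR). Neither gene's groups overlapped, and both genes were lower under both treatments. NSDHL was 1.42-fold lower (-0.51 ± 0.0699, adjusted p = 7.02e-05, edgeR), EBP 1.26-fold (-0.33 ± 0.0656, adjusted p = 0.00133, edgeR) and LSS 1.13-fold (-0.18 ± 0.0578, adjusted p = 0.0216, edgeR).

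Of the SREBP machinery, SREBF2 was at 169 to 218 CPM in siNON and 137 to 153 in siBCOR dexamethasone (-0.47 ± 0.0924, adjusted p = 0.00134, edgeR). SCAP was lower by less (-0.30 ± 0.0858, adjusted p = 0.0128, edgeR), and its groups overlapped. INSIG2, the second sensor, was at 11.6, 14.2, 11 and 16.4 CPM in siNON and at 18.4, 17.5, 19.6 and 19.2 in siBCOR dexamethasone (0.49 ± 0.128, adjusted p = 0.00776, edgeR). The 4 siBCOR libraries lay above the 4 siNON libraries, while in vehicle INSIG2 stood at 12.9, 13.4, 16.5 and 13.4 against 17.1, 13.2, 16.8 and 12.7 CPM and was not called (0.09, 95% interval -0.18 to 0.36). SREBF1 had a log2 fold change of -0.29 (-0.58 to -0.0020, adjusted p = 0.0983, edgeR).

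HMGCS1 was 1.36-fold higher in siBCOR dexamethasone (0.44 ± 0.114, adjusted p = 0.0074, edgeR), and MSMO1, a sterol methyl oxidase, 1.4-fold (0.48 ± 0.141, adjusted p = 0.0145, edgeR). The MSMO1 groups overlapped at 43.4 to 66.3 and 65.3 to 81.3 CPM. STARD4 and SC5D, at log2 fold changes of 0.47 and 0.43, were not called with all libraries and were called higher without both that stood apart (0.63 and 0.57, adjusted p = 0.000746 and 0.000418, edgeR). Both genes were highest of their group in siNON dexamethasone replicate 4, so leaving that library out in itself raises these differences. FASN was lower (-0.48 ± 0.174, adjusted p = 0.0394, edgeR), with ranges of 1129 to 1917 and 871 to 1471 CPM that overlapped. The calls of FASN, ACAT2, FDPS, LSS, IDI1, HSD17B7 and MSMO1 were each lost without at least 1 of the dexamethasone libraries. Of 23 alternatives, IDI1 was called under 11, HSD17B7 under 13, FASN and ACAT2 under 17, FDPS and LSS under 19 and MSMO1 under 21. The count higher was 2 without siNON dexamethasone replicate 2 or 3 and 3 without siNON dexamethasone replicate 1 or siBCOR dexamethasone replicate 1, 2 or 4, and the count lower was 7 without siNON dexamethasone replicate 2 or siBCOR dexamethasone replicate 1.

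**Figure D4:**
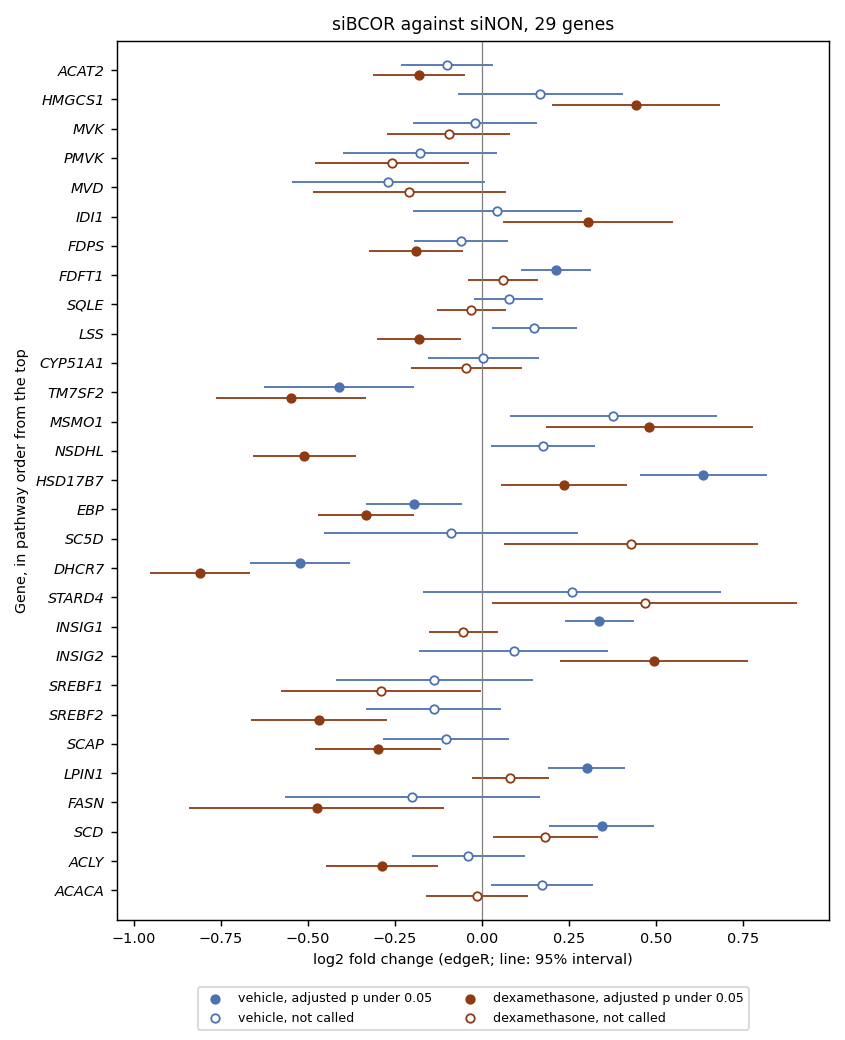
Log2 fold change of siBCOR against siNON cells for the 29 genes in pathway order, in vehicle (blue) and dexamethasone (brown), with 95% intervals, from 4 libraries per group; filled points passed an adjusted p of 0.05. DHCR7, TM7SF2 and EBP are filled to the left under both treatments, and HSD17B7 is filled to the right under both.

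Other genes of the pathway were counted in 4 lists. Beside these counts, 10.7% of all genes rose and 8.64% fell with hormone in siNON cells, 10.5% and 12.5% in siBCOR cells, and with siBCOR 8.87% were higher and 8.23% lower in vehicle and 20.7% and 18.8% in dexamethasone. Of 14 other sterol and isoprenoid enzymes, 3 rose with dexamethasone and 0 fell in siNON cells (edgeR, 3 with an unadjusted p under 0.05, against 29.9% of all genes). In siBCOR cells 2 rose and 0 fell (3 with an unadjusted p under 0.05, against 36.1% of all genes). With siBCOR 1 was higher and 1 lower in vehicle, and 4 were higher and 2 lower in dexamethasone. FAXDC2, a sterol hydroxylase family gene, rose by 1.06 on the log2 scale in siNON cells (SE 0.142, adjusted p = 2.33e-05) and by 0.41 in siBCOR cells (adjusted p = 0.0473), and PDSS2, of ubiquinone synthesis, was higher with siBCOR in vehicle (0.47) and in dexamethasone (0.36), by edgeR.

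Of 15 genes of sterol uptake, storage, transport and efflux 14 were tested (ABCA1 had too few reads, 109 in all libraries). In siNON cells 4 rose with hormone and 3 fell, and in siBCOR cells 2 rose and 5 fell. With siBCOR 0 were higher and 2 lower in vehicle, and 0 were higher and 5 lower in dexamethasone. NPC1, which exports cholesterol from lysosomes, rose in siNON cells (log2 fold change 0.66 ± 0.0891, adjusted p = 2.5e-05, edgeR). ABCG1, a sterol efflux pump, fell under both siRNAs (-0.77 ± 0.127 in siNON and -0.71 ± 0.122 in siBCOR cells), as did MYLIP, a ligase that degrades lipoprotein receptors (-0.43 ± 0.0817 and -0.44 ± 0.0806). The lipoprotein receptor gene VLDLR was lower with siBCOR in vehicle and in dexamethasone (-0.45 ± 0.12 and -0.59 ± 0.122), as was STARD3, an endosomal sterol transfer gene (-0.25 ± 0.0657 and -0.35 ± 0.0654).

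Of 14 genes of SREBP processing and turnover, 0 rose and 1 fell with dexamethasone under each siRNA, ERLIN2 in siNON (-0.23) and SP1 in siBCOR cells (-0.21). In vehicle 1 was higher with siBCOR (ERLIN1, 0.39 ± 0.0633) and 1 lower (NFYC), and in dexamethasone 5 were higher and 3 lower. The subunits of NF-Y did not move together there: NFYC was lower (-0.55 ± 0.0767, adjusted p = 8.41e-05), NFYB higher (0.59 ± 0.11, adjusted p = 0.00087) and NFYA not called (-0.11), by edgeR. Of 16 other fatty acid and lipid genes, 3 rose with hormone in siNON cells and 2 fell, and 0 rose in siBCOR cells and 5 fell. MID1IP1, an activator of acetyl-CoA carboxylase, fell in both (-1.91 ± 0.132 and -1.89 ± 0.133), further than any of the 29. With siBCOR 2 were higher and 5 lower in vehicle, SCD5 (-0.33) among them, and 5 were higher and 8 lower in dexamethasone, among them FADS1 (-0.43 ± 0.0482) and ACSS2 (-0.56 ± 0.0723). In the interaction 0 genes of these 4 lists were called by edgeR, against 0.0974% of all genes. In the order of the lists above, 4, 4, 5 and 6 genes had an unadjusted p under 0.05, against 19.3% of all genes.

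BCOR binding was described from the authors' lists of 267 vehicle-enriched, 3055 dex-enriched and 8587 shared peaks in hg19. The lists hold positions only, so peaks could not be ranked or tested between libraries. A peak of any list lay within 50 kb of the transcript start of 18 of the 29 genes, against 54.3% of all genes tested. Shared peaks lay near 16 (47.8% of all genes), dex-enriched peaks near 4 (13.6%) and vehicle-enriched peaks near 0 (2.74%). The 11 without a peak in this window included NSDHL, INSIG1, HMGCS1 and SQLE. Their nearest peaks were shared ones at 67.2 kb for NSDHL, 73.3 kb for INSIG1 and 120.1 kb for HMGCS1, and a dex-enriched one at 336 kb for SQLE.

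Within 1 kb of the start 8 of the 29 genes had a peak, all of them shared, against 18.4% of all genes with a shared peak. They included the 3 genes of the SREBP machinery SREBF1 (chr17:17739984-17740302, 23 bases into the gene), SREBF2 (chr22:42227770-42228130, 953 bases upstream) and SCAP (chr3:47516903-47517221, 228 bases into the gene). Of the enzymes, FASN (chr17:80055765-80056083), MVD (chr16:88729148-88729482) and DHCR7 (chr11:71159649-71159993) had peaks 23 bases and 75 bases into the gene and 172 bases upstream. The peaks at CYP51A1 (chr7:91763846-91764164) and STARD4 (chr5:110847512-110847846) lay nearer to the starts of the antisense genes CYP51A1-AS1 and STARD4-AS1. Exons and introns were not annotated in the files used, so only gene spans are given. SREBF1 had 5 shared peaks within 50 kb, the most of the 29.

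The 4 dex-enriched peaks lay farther from the starts. That of FASN was 15.7 kb upstream (chr17:80071821-80072155), that of SCAP 19.7 kb inside the gene span (chr3:47497441-47497775), that of LSS 39.9 kb downstream of its start and past the gene's end (chr21:47608542-47608876), and that of MVK 48 kb downstream of its start and past the gene's end (chr12:110059524-110059858). The LSS peak was nearer to the start of SPATC1L, 4169 bases from it. Several shared peaks more than 1 kb away lay at another gene's start, such as those of ACAT2 (at WTAP), PMVK (at PYGO2) and SCD (at OLMALINC). With a window of 10 kb the counts were 10 genes with a shared and 0 with a dex-enriched peak, and with 100 kb they were 22 and 9.

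**Figure D5:**
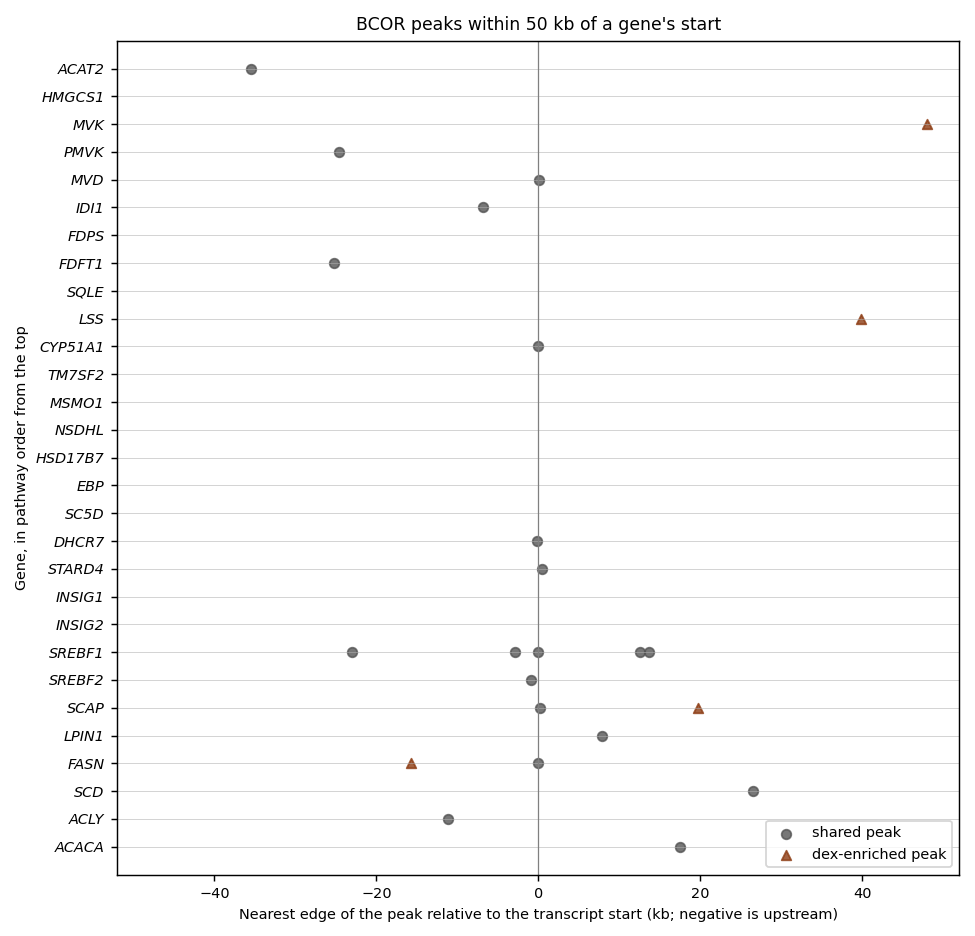
Position of each BCOR peak within 50 kb of a gene's transcript start, as the distance in kb of its nearest edge from the start (negative is upstream), with shared peaks as circles and dex-enriched peaks as triangles. Shared peaks sit at the start of 8 genes, the 4 dex-enriched peaks lie 15.7 to 48 kb away, and NSDHL, INSIG1 and HMGCS1 have no peak in this window.

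Responses were set beside the peaks as counts only, with all libraries. In siNON cells 3 of the 18 genes with a peak rose with hormone and 4 fell, and of the 11 without, 1 rose and 3 fell, against 10.7% and 8.64% of all genes. In siBCOR against siNON cells in dexamethasone 1 of the 18 was higher and 7 lower, and of the 11 without a peak 4 were higher and 4 lower, against 20.7% and 18.8% of all genes, with median log2 fold changes of -0.18 and -0.03. Of the 4 genes with a dex-enriched peak, 3 were lower with siBCOR in dexamethasone (LSS, SCAP and FASN) and 1 rose with hormone in siNON cells (LSS). The LSS peak lay nearer to the start of SPATC1L, and the calls of LSS and FASN in siBCOR against siNON were lost without some single libraries. The 2 genes called in the interaction, NSDHL and INSIG1, were both without a peak.

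Library names in the header of the count table end in flip, and the counting command recorded there sets no strand option. What this did to the strand of the counts was not settled here, and some of the 29 genes share part of their span with another gene. TCP1 overlaps ACAT2 by 615 bases on the opposite strand and had 312% as many reads, RUSC1-AS1 overlaps FDPS by 3813 bases with 21.5% as many, and RAI1 overlaps SREBF1 by 103 bases. IDI2-AS1 overlaps IDI1 by 4782 bases with 9.83% as many reads, STARD4-AS1 overlaps STARD4 by 372 bases with 14.8%, and VPS51 overlaps TM7SF2 by 7 bases on the same strand. If strand was not used, reads in the shared parts cannot be told apart, and the values of these 6 genes carry that limit. NSDHL, INSIG1, HMGCS1, SQLE and DHCR7 had no such overlap with a gene of the table.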

How the data were processed

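Poly(A) RNA was sequenced from 16 libraries and BCOR ChIP-seq peaks came as 3 lists. The deposited table holds raw counts over exons of 65572 RefSeq transcripts in hg19 from HOMER, unadjusted for depth, per the file headers. Tools named in the submitters' processing notes are HOMER 4.10.3, Bowtie 0.12.9, TopHat2, Trimmomatic, bedtools and FastQC. In the deposited peak files every score is 0, and how the authors sorted peaks into classes is not given in the sources used here. The series text mentions fewer biological replicates than the 4 per group that the sample labels give.

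The transcript with the most reads stood for each symbol; 134 transcripts without a name (0.0664% of counts) were left out. edgeR 4.0.16 (filterByExpr, TMM, quasi-likelihood test over 4 group means, all 16 libraries) was fitted to 16432 genes, with Benjamini-Hochberg adjustment and calls at 0.05. SE is the log2 fold change divided by the root of F. CPM use TMM-scaled totals. In data simulated for the hormone comparison in siNON cells (16307 genes), 71% of changes of 0.5 and 100% of changes of 1.0 (log2) were called. Changes were given only to genes above a cut on mean level. The simulated libraries varied independently, by a spread fitted as a trend over expression level, and none stood apart. These shares need not hold for the real libraries. Replicates of a group differed by more than counting noise (chi-square per degree of freedom 2.7 to 48.8). Libraries held 18580294 to 28054808 counts, and the spread between them, more than counting error, sets the precision.

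Comparisons share libraries: each siRNA's and each treatment's comparison, and the interaction, use the same 4 groups. Alternatives were upper-quartile scaling, DESeq2 1.42.0, no filter, a replicate block, the longest transcript, a fit of 2 groups, leaving out each library, and leaving out both that stand apart. For peaks they were windows of 10 and 100 kb, the peak centre and any transcript start. Members and gene lists were chosen with earlier results of these data known. All 29 genes are named, with values per library for 12 with the largest called changes, NSDHL and INSIG1 included. Of each related list up to 2 called genes with the smallest adjusted p are named per comparison, and some genes of these lists are not reported here. Promoters are RefSeq's for GRCh38.p14, found for 25 of the 29 genes.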

Additional observations from a re-analysis of the deposited data

Results flagged for a closer look

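The hormone response differed between the siRNAs, by the interaction test, for NSDHL (-0.686, a smaller rise in siBCOR cells) and INSIG1 (-0.3907, a larger fall in siBCOR cells). Both values are log2 fold changes in siBCOR minus those in siNON cells. Both genes were known to pass this test when the set was chosen, so the values are given as a description. Of 22 alternatives, NSDHL was called under 19 and INSIG1 under 4.

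In 7 of 116 groups of 4 libraries 1 library lay far from the other 3, as the gap to its nearest neighbour over the group's range. Chance flags about 1 in 20 such groups. Of the 7, 4 were replicate 3 of siNON vehicle, which was high for MSMO1 (66.9 CPM against a median of 47.2 in the others, gap 0.8575 of the range), SC5D (81.3 against 52.9, 0.8365), STARD4 (54.9 against 31.2, 0.9339) and INSIG2 (16.5 against 13.4, 0.8567). SCAP was low in siNON dexamethasone replicate 4 (139 against 170.0 CPM, gap 0.855), PMVK high in siBCOR vehicle replicate 2 (32.9 against 22.5, gap 0.9244) and FDPS high in siNON vehicle replicate 4 (267 against 232, gap 0.8653).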

How the results depend on the processing

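Of 3306 values of single genes under alternatives, 3129 stayed on the same side of the threshold, 97 lost a call, 80 gained one and 0 calls reversed; 58 changed sign without being called in either fit. Of 46 calls, 31 held under every alternative run (23 for each comparison of 2 groups, 22 for the interaction). Counts of the 29 genes moved by over 1.5 times as follows. For genes that rose with hormone in siBCOR cells (1), upper-quartile scaling, no filter and the replicate block gave 2, the fit of 2 groups 3, and DESeq2 and leaving out both libraries that stand apart 4, with 1 to 3 when single libraries were left out. For siBCOR against siNON in vehicle (5 higher, 3 lower), leaving out both libraries gave 8 and 6, and the fit of 2 groups gave 1 lower. In dexamethasone (5 higher, 11 lower), upper-quartile scaling gave 3 higher, and single libraries 2 to 7 higher and 7 to 12 lower. For the interaction (0 above, 2 below), upper-quartile scaling, no filter and the replicate block gave 1 below, leaving out both libraries 1 above and 5 below, and single libraries 0 to 2 above and 0 to 7 below. For peaks, a window of 10 kb gave 0 genes with a dex-enriched, 10 with a shared and 10 with any peak (from 4, 16 and 18), and 100 kb gave 9 dex-enriched. Over all genes the interaction counts (3 above, 13 below) ran from 0 to 1441 and from 2 to 1096 when single libraries were left out. The cause of these moves was not tested, other than the narrower or wider window for peaks.

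No general pairing of libraries by replicate number was seen. Of 24 same-numbered pairs, 6 had correlated deviations over 0.1 (range -0.526 to 0.503), and 4 of 16 libraries correlated best with their own number. These correlations cannot settle whether same-numbered libraries were prepared together. With the replicate block the interaction of INSIG1 had adjusted p = 0.0697 and that of NSDHL 0.0448, by edgeR.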
